A study of Mus musculus with 16 samples.

Results

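The miR-132 and miR-212 cluster makes 4 mature miRNAs, the 3p and 5p arms of its hairpins, and these were followed in mouse 3T9 fibroblasts after serum was given back. They were chosen by name (mmu-miR-132-3p, mmu-miR-132-5p, mmu-miR-212-3p, mmu-miR-212-5p, with the species prefix left out below) from the 1167 mature miRNAs of the count table. Each was taken as the sum of its reads of reference length, trimmed, and altered at the 3' or 5' end. 3T9 is an immortalised fibroblast line grown from mouse embryos. All cells had been held without serum for 72 h, the 0 h libraries are these quiescent cells, and the other libraries were taken after 1, 2, 4, 6, 8, 10 and 12 h in medium with 10% fetal bovine serum. Each of the 8 times had 2 libraries of small RNA, which the series calls independent experiments, and no untreated cells were followed in parallel among the libraries analysed. The times therefore differ in hours since the medium change as well as in serum.

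miR-132 and miR-212 are cut from a single primary transcript whose promoter is a known target of CREB, a transcription factor activated by growth factors, cAMP and calcium. A hairpin yields a 5p and a 3p arm, of which the guide is loaded into Argonaute and pairs with targets through its seed, bases 2 to 8, while the passenger is mostly degraded. The 3p arms are the guides usually studied, and miR-132-3p is best known from neurons, where it responds to activity, and from blood vessels, where it represses the Ras inhibitor RASA1. CREB itself was not measured here.

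The mature sequences show which members can share targets. They are given 5' to 3' with the seed in capitals (RefSeq, GRCm38.p6), and all 4 members were matched by name.
mmu-miR-132-3p: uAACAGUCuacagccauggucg
mmu-miR-212-3p: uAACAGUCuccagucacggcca
mmu-miR-132-5p: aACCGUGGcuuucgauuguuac
mmu-miR-212-5p: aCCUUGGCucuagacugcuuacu
Both 3p arms carried the same seed, and no other mature miRNA of the RefSeq table had it. The 22 bases of the 3p arms were identical at 17 positions. Counted from the 5' end, miR-212-3p differed from miR-132-3p by A10C, C14U, U17C, U20C and G22A, so that reads of full length can be told apart. The 5p arms each had a seed that no other mature miRNA in the table shared.

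The hairpins show where the arms lie. The mature arms are in capitals.
Mir212: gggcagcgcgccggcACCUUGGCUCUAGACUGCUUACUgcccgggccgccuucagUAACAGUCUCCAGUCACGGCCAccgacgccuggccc
Mir132: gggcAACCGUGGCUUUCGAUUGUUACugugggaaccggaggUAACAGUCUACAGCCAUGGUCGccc
Mir212 lies at chr11:75173388-75173478 and Mir132 at chr11:75173682-75173747, both on the plus strand of GRCm38.p6 with 203 bases between them. Both fall in intron 1 of the noncoding transcript 1700016P03Rik (chr11:75172560-75177633, 3 exons, GENCODE M21) and overlap none of its exons.

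Libraries held 5852087 to 7783249 miRNA reads. Levels are given in CPM (read counts scaled to a common library size) after TMM scaling, which sets library totals on a common footing. miR-132-3p had the most reads of the members, with 163 to 359 reads per library and rank 190 of 1167 by mean CPM. miR-212-5p (27 to 115 reads) ranked 274 and miR-212-3p (14 to 66 reads) ranked 305. miR-132-5p had 0 to 4 reads per library and was left out of the tests by the filter on low counts, which 449 miRNAs passed. Levels of different miRNAs also depend on how well each small RNA is ligated and amplified, so these ranks order reads and not molecules. Listed fibroblast miRNAs (7 of 7 measured, among them miR-143-3p and miR-22-3p) summed to 322536 to 427701 CPM. Of 9 neural miRNAs 7 were measured, and they summed to 294.1 to 464.5 CPM, with means of 321.3 CPM at 0 h, 417.1 at 4 h and 351.5 at 12 h. Most of this was miR-128-3p, and none of the 7 was at 0 in every library. The defining neural miRNAs miR-124-3p and miR-137-3p had no entry under these names in the count table. The part of neural miRNAs in the results was not tested. Blood, epithelial and muscle markers each summed to at most 7.85 CPM.

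Of the 3 tested members, miR-212-3p and miR-212-5p changed over the course (adjusted p = 0.00262 and 0.00607, edgeR quasi-likelihood test of any difference among the 8 times, Benjamini-Hochberg adjustment over 449 miRNAs), and 13.8% of all tested miRNAs did. miR-132-3p was not called (adjusted p = 0.233). A replicate block, which sets each library against the others of its experiment, called all 3 members and 24.5% of all miRNAs (edgeR adjusted p = 0.0114 for miR-132-3p, then 0.000331 and 0.000674 for the 3p and 5p arms of miR-212). In pairwise tests against 0 h the number of the 3 tested members that rose was 0, 1, 2, 2, 1, 2 and 1 at 1, 2, 4, 6, 8, 10 and 12 h, and 0 fell. Of all tested miRNAs 0.223%, 1.56%, 4.68%, 4.9%, 6.24%, 7.13% and 8.24% rose at these times, and 0.223%, 0.891%, 2.9%, 2.9%, 3.34%, 4.68% and 6.01% fell. A member is said to have risen or fallen below only where its adjusted p without the block was under 0.05. Same-numbered libraries varied together, as described under the processing, so the calls that the block adds are given beside these.

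**Figure D1:**
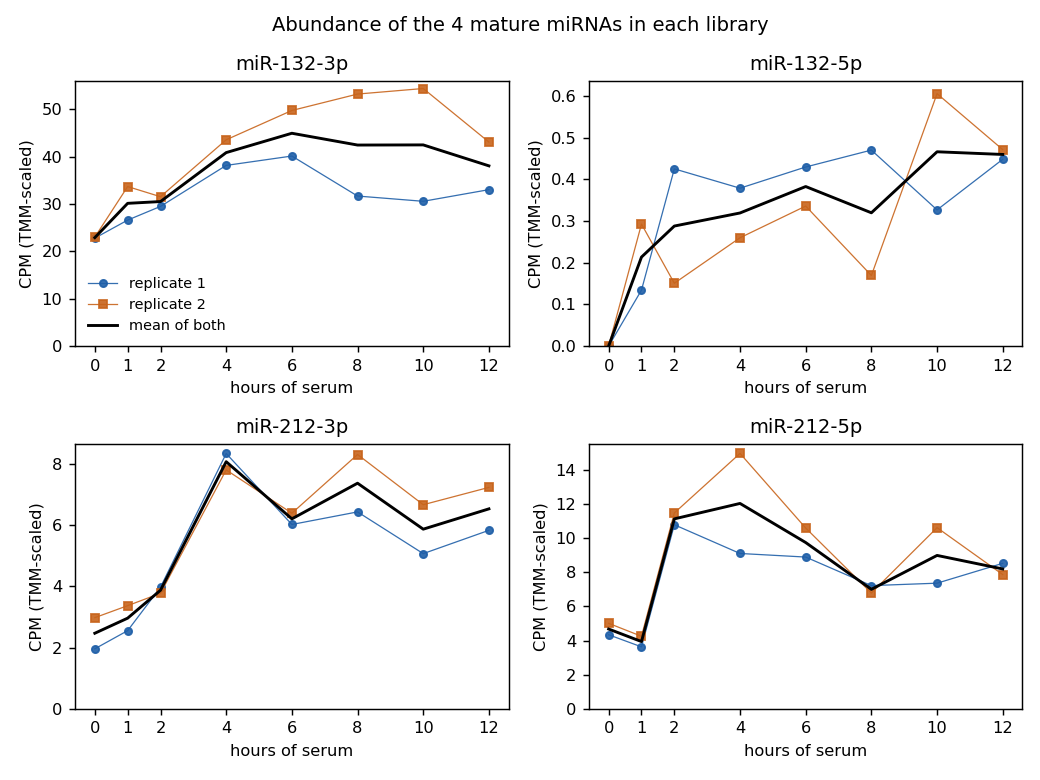
Level of each of the 4 mature miRNAs in CPM (y axis, from 0, with a scale of its own in each panel) against hours of serum (x axis). Points are single libraries, blue circles for replicate 1 and orange squares for replicate 2, and the black line joins the means of both. miR-212-5p steps up between 1 and 2 h. The mean of miR-212-3p is higher at 4 h than at 2 h, a step called only with the replicate block. The replicates of miR-132-3p part at 8 and 10 h.

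miR-212-5p, the arm usually named the passenger, was the only tested member that had risen by 2 h. It stood at 4.34 and 5.01 CPM in the 0 h libraries and at 3.63 and 4.25 CPM at 1 h. At 2 h it was at 10.8 and 11.5 CPM, above all 4 earlier libraries. Against 0 h the log2 change was -0.25 ± 0.30 (SE, adjusted p = 0.994) after 1 h, and it was 1.25 ± 0.27 (adjusted p = 0.0191, edgeR quasi-likelihood test) after 2 h. The step from 1 to 2 h was 1.50 ± 0.27 on the log2 scale (adjusted p = 0.00572), where 1.56% of miRNAs rose. The 2 h call was lost without 0 h replicate 1, 0 h replicate 2 or 2 h replicate 2 (log2 change 1.23, 1.37 and 1.24, adjusted p = 0.163, 0.115 and 0.113), and that of the step without 1 h replicate 1 (1.44, adjusted p = 0.0701).

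The highest level of miR-212-5p was 14.96 CPM in 4 h replicate 2, with 9.10 CPM in 4 h replicate 1. The 6 h libraries held 8.89 and 10.6 CPM, and those of 8 h held 7.22 and 6.78 CPM. The later pairs held 7.36 and 10.6 CPM (10 h) and 8.52 and 7.86 CPM (12 h). Every library from 2 h on thus lay above both 0 h libraries. miR-212-5p rose against 0 h by 1.36 ± 0.26 (SE, log2) after 4 h, by 1.05 ± 0.27 after 6 h and by 0.94 ± 0.27 after 10 h (edgeR quasi-likelihood test, adjusted p = 0.00469, 0.0330 and 0.0365). Those at 8 h (0.58 ± 0.28) and 12 h (0.81 ± 0.28) were not called (adjusted p = 0.258 and 0.0668), and with the replicate block that at 12 h was (adjusted p = 0.0242). No trend per hour was called (0.0356 ± 0.0324, adjusted p = 0.468).

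Calls of miR-212-5p rested on few libraries. The 4 h call was lost without 0 h replicate 1 (adjusted p = 0.0524) or 4 h replicate 2 (0.102, edgeR quasi-likelihood test). The 6 h call did not survive the loss of any library among those of 0 h and 6 h (adjusted p from 0.0511 to 0.178). The 10 h call was lost without 0 h replicate 1, 0 h replicate 2 or 10 h replicate 2 (0.174, 0.120 and 0.250), with total counts in place of TMM (0.0779) and in a fit of the 0 h and 10 h libraries only (0.0577). The change at 12 h was called without 4 h replicate 1 (0.0370) or 4 h replicate 2 (0.0316).

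miR-212-3p, with the seed of miR-132-3p, was first called at 4 h. The quiescent cells held 1.96 and 2.98 CPM, the 1 h libraries 2.55 and 3.37 CPM, and the 2 h libraries 3.97 and 3.77 CPM. At 4 h it reached 8.34 and 7.80 CPM, above all 6 earlier libraries. The 6 h libraries held 6.02 and 6.39 CPM, and those of 8 h held 6.43 and 8.31 CPM. The later pairs held 5.07 and 6.67 CPM (10 h) and 5.83 and 7.23 CPM (12 h). No library from 4 h on was as low as any library up to 2 h.

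For miR-212-3p the log2 change against 0 h was 0.25 ± 0.30 (SE, adjusted p = 0.994) after 1 h, and it was 0.64 ± 0.29 (adjusted p = 0.433, edgeR quasi-likelihood test) after 2 h. From 4 h on it rose at every time tested, by 1.70 ± 0.27, 1.32 ± 0.28, 1.57 ± 0.28, 1.24 ± 0.28 and 1.39 ± 0.28 in order of time (edgeR adjusted p = 0.00107, 0.00892, 0.00191, 0.0103 and 0.00365). The step from 2 to 4 h was 1.06 ± 0.25 (adjusted p = 0.0760), and with the replicate block it was called (1.06 ± 0.22, adjusted p = 0.0186). Without the block 0.668% of miRNAs rose over that step. Over all 16 libraries miR-212-3p rose by 0.0957 ± 0.0283 per hour (adjusted p = 0.0167), where 12% of miRNAs rose. The 6 h call was lost without 0 h replicate 1 (adjusted p = 0.0844) or 6 h replicate 2 (0.0536), the 10 h call without 0 h replicate 1 (0.0934) or 10 h replicate 2 (0.0821), and the trend without 0 h replicate 2 (0.0533). The trend was not called from reads of reference length either (0.0555 per hour, adjusted p = 0.547).

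miR-132-3p, the member with the most reads, was above its 0 h level in every library with serum, but without the replicate block no single time was called. With the block every time from 4 to 12 h was called. The quiescent cells held 22.8 and 23.0 CPM, the 1 h libraries 26.6 and 33.7 CPM, and the 2 h libraries 29.5 and 31.6 CPM. The next pairs held 38.2 and 43.6 CPM (4 h) and 40.1 and 49.8 CPM (6 h). These and the later libraries, 14 in all, were above both 0 h libraries. From 8 h on the experiments parted, with 31.7 CPM in replicate 1 and 53.2 in replicate 2 at 8 h. The later pairs held 30.6 and 54.4 CPM (10 h) and 33.0 and 43.1 CPM (12 h). Replicate 2 was the higher of the pair at every time.

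In order of time the log2 changes of miR-132-3p against 0 h were 0.40 ± 0.29 (SE), 0.41 ± 0.29, 0.83 ± 0.28, 0.97 ± 0.29, 0.89 ± 0.29, 0.89 ± 0.29 and 0.73 ± 0.29. None was called (adjusted p = 0.994, 0.687, 0.0952, 0.0519, 0.0682, 0.0579 and 0.118, edgeR quasi-likelihood test). With the replicate block those from 4 to 12 h were (adjusted p = 0.00759, 0.00227, 0.00457, 0.00349 and 0.0114), where 14.7% to 24.05% of all miRNAs were called. Without a low-count filter the changes from 4 to 12 h were called too (0.0186, 0.00198, 0.0101, 0.00448 and 0.0493), and DESeq2 called those at 6, 8 and 10 h (0.0202, 0.0449 and 0.0298). Reads of reference length alone gave larger changes at 6, 8, 10 and 12 h (log2 1.34, 1.19, 1.24 and 1.08), which were called (edgeR adjusted p = 0.0341, 0.0439, 0.0309 and 0.0498). Fits of only the groups compared called those at 4, 6 and 12 h (0.0154, 0.00877 and 0.0186), and DESeq2 size factors in edgeR that at 6 h (0.0493). The whole course was called without a low-count filter (0.00728). Leaving out single libraries gave a call at 4 h (without either library of 10 h), at 6 h (without 1 h replicate 1 or either library of 8 or 10 h), at 8 h (without 8 h replicate 1 or either library of 10 h) and at 10 h (without 10 h replicate 1, 6 h replicate 2 or either library of 8 h), with adjusted p of 0.0112 to 0.0491. In the other direction, without 8 h replicate 2 the 8 h change was 0.50 (adjusted p = 0.510), and without 10 h replicate 2 the 10 h change was 0.47 (adjusted p = 0.454), so the size at these times rested on replicate 2. Over the trend miR-132-3p rose by 0.0563 ± 0.0196 per hour (adjusted p = 0.0404). This call was lost with total counts (0.0433 per hour, adjusted p = 0.113), without a low-count filter (0.0575, adjusted p = 0.0693) and in 10 of the 16 fits that left out a single library (adjusted p up to 0.129). These were the fits without replicate 1 of 0, 1, 2 or 6 h and without replicate 2 of 0, 1, 2, 8, 10 or 12 h. The trend p-values come from the same libraries as the changes against 0 h and are not further evidence.

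**Figure D2:**
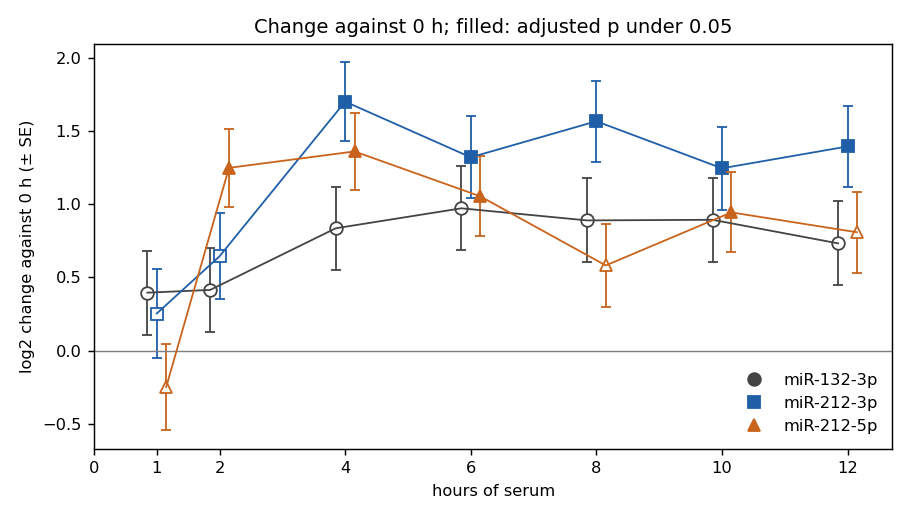
Log2 change against 0 h (y axis) at each later time (x axis, hours of serum, points set slightly apart) for the 3 tested members, with SE bars from edgeR. Filled symbols have an adjusted p under 0.05 without the replicate block: miR-212-5p at 2, 4, 6 and 10 h, miR-212-3p from 4 to 12 h and miR-132-3p at no time. With the block miR-132-3p was called from 4 to 12 h.

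At 1 h no tested member was called (0 of 3, edgeR quasi-likelihood test), 0 had an unadjusted p under 0.05, and DESeq2 and limma-voom called 0. For the steps from 4 to 6, 6 to 8, 8 to 10 and 10 to 12 h no member and no other miRNA was called (0 of 449, 0%), 0 members had an unadjusted p under 0.05, and DESeq2 and limma-voom called 0 members. No change between neighbouring times after 4 h was therefore detected with 2 libraries a time, which does not show that levels stayed the same.

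miR-132-5p was near the limit of detection. The 0 h libraries had 0 reads each, which allows up to 0.420 and 0.406 CPM (3 counts of the total). The 14 later libraries had 1 to 4 reads each and 33 in all, with 3 reads at 1 h, 4 at 2 h, 5 at 4 h, 5 at 6 h, 4 at 8 h, 6 at 10 h and 6 at 12 h, both libraries together. Only the 4 reads of 10 h replicate 2 exceeded 3 counts, so no fold change is given. Of the 33 reads 12 were of reference length, 19 were trimmed and 2 had templated 3' bases.

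The arms of the hairpins were used in unlike shares. miR-132 reads were nearly all 3p, and the 5p arm made up 33 of 3981 reads (0.829%, 95% exact binomial interval 0.571 to 1.16%). At 0 h it was 0 of 333 reads, which allows a share of up to 1.10% by the same interval. At 12 h it was 6 of 501 (1.20%, interval 0.441 to 2.59%). miR-212 reads were 896 of 1483 from the 5p arm (60.4%, interval 57.9 to 62.9%), so the arm usually named the passenger had the most reads. These intervals cover counting error only.

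The 5p share of miR-212 was highest at 2 h. It was 68.9% and 62.7% in quiescent cells, 58.7% and 55.8% after 1 h, and 73.1% and 75.2% after 2 h. Shares were 52.2% and 65.7% after 4 h, 59.6% and 62.4% after 6 h, and 52.9% and 44.9% after 8 h. The last libraries gave 59.2% and 61.4% (10 h) and 59.4% and 52.1% (12 h). The 2 h libraries held the highest shares of all 16, and 8 h replicate 2 was the only library in which 3p reads were the majority.

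The log2 ratio of 3p to 5p reads was tested for miR-212 among the 103 hairpins with enough reads on both arms (limma with Benjamini-Hochberg adjustment). Over the course miR-212 was not called (adjusted p = 0.0687), and 10.7% of hairpins were. With the replicate block it was called (adjusted p = 0.0388), as were 21 of the 103 hairpins. The differences from 0 h were -0.58 ± 0.31 (SE) after 2 h, 0.40 ± 0.31 after 4 h, 0.99 ± 0.31 after 8 h and 0.60 ± 0.31 after 12 h (limma adjusted p = 0.425, 0.560, 0.0848 and 0.203), and none was called. The slope was 0.0554 ± 0.0261 per hour (limma adjusted p = 0.124), and 24.3% of hairpins had a called slope. The earlier call of the 5p than of the 3p arm at 2 h is thus not shown as a difference between arms at that time. Without 4 h replicate 1 or 4 h replicate 2 the course of the ratio was called (limma adjusted p = 0.0410 and 0.0304).

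The 5p share itself was set against time over the 16 libraries, with 11 such measures in the family. For miR-212 Pearson's r was -0.48 and Spearman's rho -0.46 (2-sided permutation p = 0.0611 and 0.0757, adjusted p = 0.112 and 0.139). Without the 2 libraries farthest from the median time r was -0.45, and within replicates 1 and 2 it was -0.46 and -0.50. For miR-132 r was 0.59 and rho 0.63 (permutation p = 0.0180 and 0.00982, adjusted p = 0.0704 and 0.0540), r was 0.51 without the 2 farthest libraries and 0.65 and 0.63 within replicates. This share rests on 33 reads. Neither relation passed the adjustment over all 16 libraries. That of miR-132 passed without 2 h replicate 1 (r = 0.72, permutation adjusted p = 0.0212), but not in 15 of the 16 fits that left out a library. Over all alternative settings the permutation adjusted p reached 0.820 for the share of each hairpin.

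**Figure D3:**
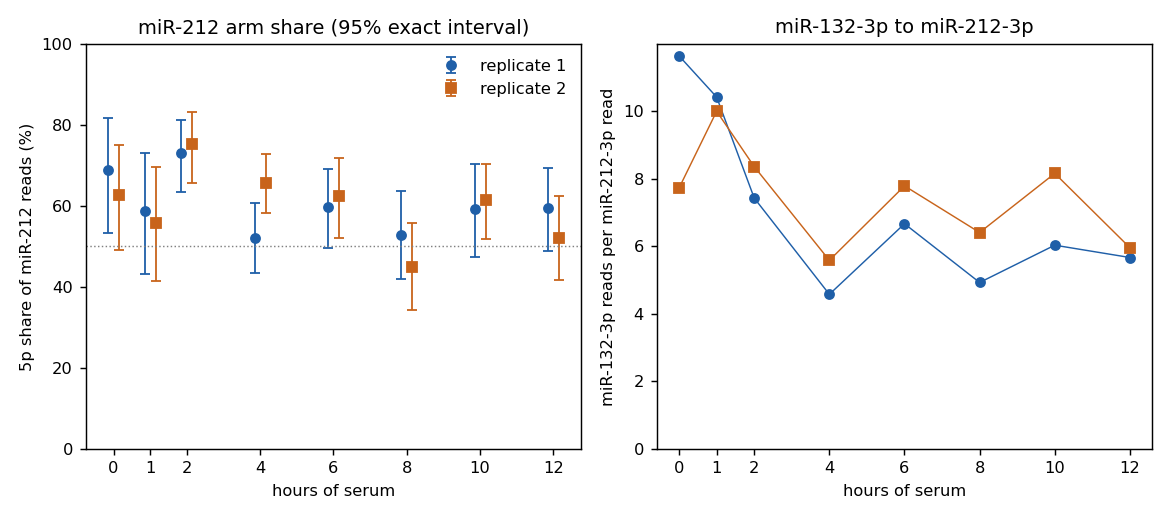
Left, 5p share of miR-212 reads in percent (y axis, 0 to 100) against hours of serum, with 95% exact binomial intervals for each library and a dotted line at equal use of both arms. Right, miR-132-3p reads per miR-212-3p read (y axis, from 0) in the same libraries, where blue circles are replicate 1 and orange squares replicate 2. The 5p share is highest at 2 h, and both replicates have their lowest ratio at 4 h.

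The miRNAs that share a seed were closest in reads at 4 h. Each read of miR-212-3p stood against 11.6 and 7.73 reads of miR-132-3p in quiescent cells, 10.4 and 10.0 after 1 h, and 7.43 and 8.36 after 2 h. After 4 h the ratio was 4.58 and 5.58, the lowest value of each replicate. It was 6.67 and 7.79 after 6 h, 4.93 and 6.41 after 8 h, 6.03 and 8.16 after 10 h, and 5.67 and 5.96 after 12 h. The 0 h values rest on 14 and 22 reads of miR-212-3p. Against time the log2 ratio had r = -0.59 and rho = -0.59 (2-sided permutation p = 0.0192 and 0.0204, adjusted p = 0.0704 and 0.0747), with r = -0.54 without the 2 farthest libraries and -0.69 and -0.48 within replicates. It did not pass the adjustment, and with reference-length reads alone r was 0.06.

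End forms set the members apart. miR-132-3p had non-templated bases added to its 3' end in 29.6% of its reads, against a median of 7.11% over the 315 miRNAs with at least 500 reads, 42 of which had a higher share. Of its 1167 non-templated reads 1028 (88.1%) carried only U, and 26.0% of all its reads ended so, against a median of 0.898% (14 of 315 higher). The hairpin continues with ccc after this arm, so an added U does not match it. miR-212-3p carried U alone in 3.24% of its reads and mixed additions in 9.71%, and its hairpin continues with ccg. Templated 3' extension made up 20.4% of miR-212-5p reads, 6.99% of miR-212-3p reads and 0.709% of miR-132-3p reads.

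miR-132-3p reads with added bases were highest in share at 0 and 1 h. The non-templated share was 32.5% and 34.7% in quiescent cells, 41.9% and 32.6% after 1 h, 28.8% and 27.8% after 4 h, and 30.8% and 24.1% after 12 h. At the other times it was 25.5% and 32.1% (2 h), 28.2% and 31.1% (6 h), 32.2% and 28.0% (8 h) and 26.2% and 25.1% (10 h). Single libraries of 2 and 8 h thus came close to those of 0 and 1 h. U alone was on 104 of 333 reads at 0 h (31.2%, 95% exact interval 26.3 to 36.5%) and 105 of 495 at 12 h (21.2%, interval 17.7 to 25.1%). The single libraries gave 29.5% and 32.9% at 0 h and 23.5% and 19.3% at 12 h. These intervals pool both libraries and cover counting error only, and the share of U alone was not tested over time. Over time the non-templated share had r = -0.58 and rho = -0.68 (2-sided permutation p = 0.0147 and 0.00505, adjusted p = 0.0704 and 0.0540), with r = -0.59 without the 2 farthest libraries. Within replicates r was -0.36 and -0.93. Without 2 h replicate 1 the non-templated share passed (r = -0.68, permutation adjusted p = 0.0212), but not in 15 of the 16 fits that left out a library. Reads of reference length made up 50.3% and 48.2% in quiescent cells and 62.6% and 63.3% after 4 h. Their share had r = 0.48 and rho = 0.51 (permutation p = 0.0608 and 0.0468, adjusted p = 0.112 and 0.103), with r = 0.50 without the 2 farthest libraries and 0.21 and 0.88 within replicates.

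miR-212-3p was read mostly as trimmed forms, 59.5% of 587 reads against a median of 16.2%, and 48 of 315 miRNAs had a higher share. Its end forms were not tested over time because libraries held as few as 14 of its reads. Its reads of reference length numbered 2 and 3 in quiescent cells, 15 and 21 after 4 h, 11 and 10 after 6 h, and 6 and 1 after 12 h. Their share of both libraries was 13.9% at 0 h (95% exact interval 4.67 to 29.5%), 28.6% at 4 h (20.9 to 37.3%) and 8.24% at 12 h (3.38 to 16.2%). These intervals cover counting error only. The single libraries gave 22.7% and 35% at 4 h and 15.4% and 2.17% at 12 h. Trimmed reads numbered 10 and 16 in quiescent cells, 38 and 25 after 4 h, and 24 and 35 after 12 h. Trimmed reads made up 72.2% at 0 h, 71.7% at 2 h, 43.8% at 6 h and 69.4% at 12 h. Counted from reference-length reads alone, miR-212-3p rose by 2.66 at 4 h and 2.22 at 6 h on the log2 scale (adjusted p = 0.0101 and 0.0449, edgeR quasi-likelihood test). Only the 4 and 6 h libraries held at least 10 such reads, the minimum count of the low-count filter. The filter thus let it into this fit through times where it was high, and these calls are not independent support. Its changes at 8 and 10 h were also larger in that form but not called (1.83 and 1.44, adjusted p = 0.0977 and 0.211), and that at 12 h was smaller and not called (0.65, adjusted p = 0.619).

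miR-212-5p reads were mostly of reference length, with 59.0% over all libraries, and templated extensions came next. The templated share was 22.6% and 13.5% at 0 h and 22.8% and 24.0% at 12 h. Over time it had r = 0.52 and rho = 0.56 (2-sided permutation p = 0.0418 and 0.0279, adjusted p = 0.112 and 0.0767), with r = 0.52 without the 2 farthest libraries and 0.33 and 0.72 within replicates. Its reads of reference length numbered 16 and 20 in quiescent cells, 15 and 23 after 1 h, 56 and 42 after 2 h, and 45 and 68 after 4 h. Counted from these reads alone, miR-212-5p also rose by 2 h (log2 change 1.53, adjusted p = 0.0171, edgeR quasi-likelihood test). The other tested end-form shares of miR-132-3p and miR-212-5p had adjusted p of 0.176 to 0.539 for r.

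**Figure D4:**
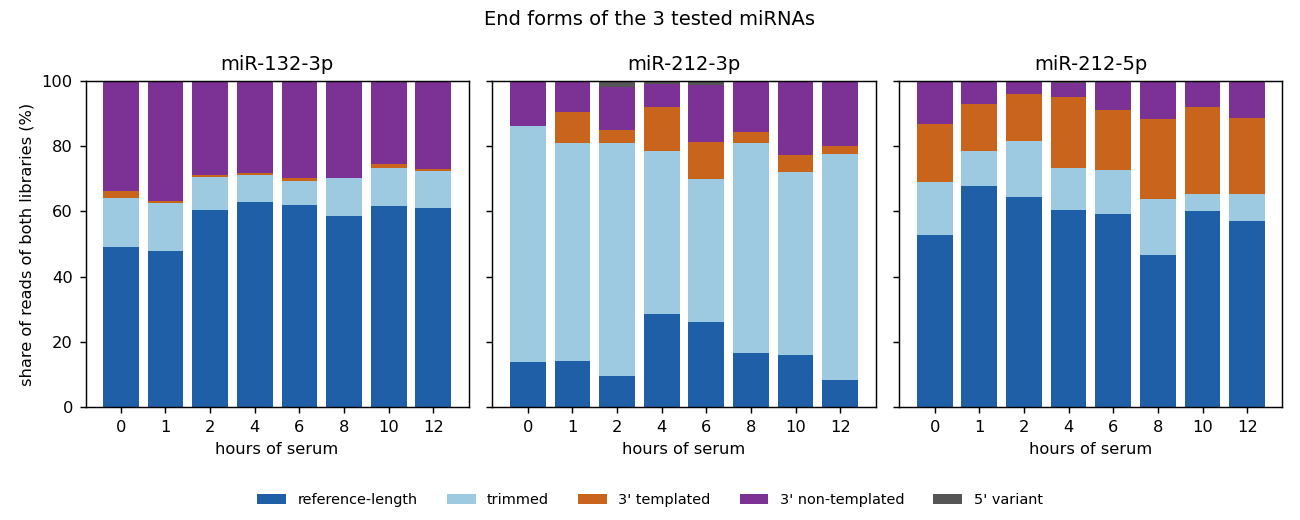
Share of reads in each end form (y axis, percent of the reads of both libraries) at each time (x axis, hours of serum, evenly spaced) for the 3 tested members. Dark blue is reference-length, light blue trimmed, orange 3' templated, purple 3' non-templated and grey 5' variant; reference-length reads of miR-212-3p take their largest share at 4 h (28.6%), and purple is most of the non-reference part of miR-132-3p.

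The time courses were compared with those of 265 miRNAs of at least 10 CPM, as correlations of log2 CPM over the 8 time means. These describe likeness in libraries that share their scaling. miR-132-3p and miR-212-3p had r = 0.92 with each other, while miR-212-5p had r = 0.63 with miR-132-3p and 0.70 with miR-212-3p. Most like miR-212-3p was miR-155-5p, a regulator of immune responses (r = 0.96, and 0.94 over 16 libraries), followed by miR-5099, miR-455-5p, miR-129b-3p and miR-149-5p (r = 0.95 for each). Most like miR-132-3p were miR-149-5p (0.96), miR-5099 (0.95), miR-129b-3p (0.94), miR-146b-5p (0.94) and miR-455-5p (0.92). Over the 16 libraries r with miR-132-3p was 0.92, 0.64, 0.88, 0.32 and 0.71 for these in the same order. Between miR-132-3p and miR-212-3p it was 0.83. With miR-212-3p it was 0.82 for miR-5099, 0.90 for miR-455-5p, 0.80 for miR-129b-3p and 0.93 for miR-149-5p.

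Other miRNAs, listed as induced by growth factors or activity, were counted for comparison of timing. The list held 18 measured arms, of which 17 were tested. Its hairpins were mir-155, mir-21a, mir-221, mir-222, mir-31, mir-146a, mir-146b, mir-134, mir-29b-1 and mir-22. miR-29b-3p in it comes from more than a single hairpin, and miR-21a-5p and miR-22-3p are also among the listed fibroblast miRNAs. At 1 h 0 of these passed (edgeR quasi-likelihood test), and at 2, 4, 6, 8, 10 and 12 h 4, 6, 6, 7, 8 and 9 rose and 0 fell. Of all tested miRNAs 1.56%, 4.68%, 4.9%, 6.24%, 7.13% and 8.24% rose at these times, and 0.891% to 6.01% fell. Arms of the same hairpin were counted separately, and the list was chosen with earlier results of these data known. The counts therefore describe timing and are not independent evidence. The median log2 change was 0.26 at 2 h and 0.59 at 12 h, against -0.03 and 0.00 over all tested miRNAs. At 12 h the 6 most abundant arms that rose were miR-22-3p, miR-21a-5p, miR-31-5p, miR-222-3p, miR-221-5p and miR-155-5p (log2 change 0.34, 0.59, 0.38, 1.30, 1.53 and 1.83). The 4 arms that had risen by 2 h, named because of that count, were miR-155-5p (1.15, edgeR adjusted p = 0.0131), miR-221-5p (0.65, adjusted p = 0.0242), miR-29b-1-5p (2.05, adjusted p = 0.00538) and miR-155-3p, which had few reads at 0 h and is given no fold. The same change of miR-212-5p was 1.25.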

How the data were processed

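The authors deposited a table of raw counts, with a row for each miRNA and class of read and a column for each of the 16 libraries, per the file headers. Per the labels' protocols, a TruSeq kit turned 1000 ng of RNA into each library. The submitters' processing notes name CASAVA 1.8.0. Aligner, miRBase release, genome build and rules for multiple matches: not given in the sources used here.

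Of 6511 entries, 1 duplicate was dropped. The 8 classes that hold each read once were summed per mature miRNA, and 3 entries outside these classes were left out. Reference-length and trimmed reads each sum a templated and a non-templated class. The non-templated share covers 3' extended reads only. edgeR 4.0.16 (R 4.3.3) fitted all libraries together on counts with TMM (factors 0.935 to 1.07), filterByExpr (minimum count 10) and Benjamini-Hochberg adjustment at 0.05. SE is the change over the square root of F. Arm ratios (0.5 reads added, mean of at least 10 reads per arm) were tested with limma 3.58.1, and shares by permutation over libraries (100000 resamples, numpy 2.4.6). The fits and permutations were tested on simulated data.

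The header names a sequencing run per replicate number, so run and experiment cannot be told apart. The numbers pair the libraries: differences between replicates correlated across all 28 pairs of times (0.134 to 0.602). Replicates of a time differed beyond counting noise (chi-square per degree of freedom 58.8 to 324). Where a fit leaves a time with 1 library, that library is assumed to vary like the others.

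The 4 members are always named, the 5 miRNAs most like each 3p arm come from the fixed rule on correlation, and up to 6 listed arms called at 12 h are named by abundance. Members, lists and tests were chosen with earlier results of these data known. Alternatives were DESeq2 1.42.0 size factors and test, limma-voom, total counts, other filters, the replicate block, reference-length reads and leaving out each library.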

Additional observations from a re-analysis of the deposited data

How the results depend on the processing

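With a mean of at least 10 CPM as the filter both miR-212 arms drop out, so the members called fell to 0 over the course, at 2, 4, 6, 8, 10 and 12 h against 0 h and for the step from 1 to 2 h, and to 1 over the trend. With the replicate block (same-numbered libraries paired) 2 members passed at 8 h, 3 at 12 h and 1 for the step from 2 to 4 h, and the adjusted p of the miR-212 arm ratio over the course was 0.0388; beyond the calls of miR-132-3p, of miR-212-5p at 12 h and of the miR-212-3p step given above it changed no other call of a member. Without a low-count filter 2 members passed at 8 h, 2 at 12 h and 1 over the trend. The DESeq2 test called 2 at 8 h. Fits of only the groups compared called 1 at 10 h and 2 at 12 h. With total counts 1 passed at 10 h and 1 over the trend, and the median change of all miRNAs moved to -0.15 at 8 h, -0.16 at 10 h and -0.15 at 12 h. Reference-length reads alone left 1 over the trend, miR-132-3p. With them the members called at 8, 10 and 12 h were as many as before but not the same, since miR-132-3p gained the call at each and miR-212-3p lost it.

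Fits that left out each library gave 0 to 1 members at 2 h, 1 to 3 at 4 h, 0 to 3 at 6 h, 1 to 2 at 8 h, 0 to 3 at 10 h, 1 to 2 at 12 h, 0 to 1 for the step from 1 to 2 h and 0 to 2 over the trend, against 2 in each over the course. Adjusted p for the arm ratio over the course ranged from 0.0304 to 0.233, and r of the miR-132 5p share with time from 0.52 to 0.72.

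Signs turned only for values that were not called. With reference-length reads these were miR-212-5p at 1 h (0.0706), miR-212-3p from 1 to 2 h (-0.145), miR-212-5p from 2 to 4 h (-0.00697) and r of the miR-132-3p to miR-212-3p ratio (0.0642). With total counts miR-132-3p from 1 to 2 h was -0.0273. Without the 0 h libraries r of the trimmed and templated shares of miR-132-3p was 0.0359 and 0.0135. Leaving out single libraries, miR-132-3p ranged from -0.0895 to 0.21 from 1 to 2 h and miR-212-5p from -0.364 to 0.35 from 2 to 4 h. The cause of these shifts was not tested, other than the filter's own. The miR-212 arm ratio gave no value at 50 reads per arm or with reference-length reads, since an arm fell under the minimum. miR-132-5p and the end forms of miR-212-3p are limited by depth.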
